A study of Mus musculus with 12 samples.

Results

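The growth hormone and IGF axis of the liver was followed through 10 transcripts, chosen by symbol for their known roles. These were Ghr, Stat5b, Igf1, Igfals, Igfbp1, Igfbp2, Igfbp4, Socs2, Cish and Bcl6. Earlier results of these data were known when they were chosen. Each symbol matched 1 of the 48795 rows of the count table, and all 10 were among the 13812 genes with enough counts to be tested. The livers came from 12 female littermate mice aged 4 months and kept on normal chow, 3 in each of 4 groups. Wild-type mice (Nts+/+) were fed ad libitum (mice 254, 257 and 323) or fasted for 22 h (mice 265, 282 and 322). Mice labelled as lacking neurotensin (Nts-/-) were likewise fed (mice 277, 303 and 319) or fasted for 22 h (mice 284, 290 and 295). Neurotensin is a gut peptide released after fat intake, and the deletion was in the whole body, so that liver and other tissues both lacked the gene by label. The design asks how the liver transcriptome differs with feeding state, with genotype, and whether the fasting response differs between genotypes.

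Growth hormone from the pituitary binds its receptor on hepatocytes and, through the kinase JAK2, activates the transcription factor STAT5B. STAT5B drives Igf1, which encodes the circulating insulin-like growth factor, Igfals, which encodes the acid-labile subunit that holds IGF-I in a long-lived complex in blood, and the feedback inhibitors Socs2 and Cish. Fasting is known to bring resistance of the liver to growth hormone, with low IGF-I in the presence of the hormone. The binding proteins IGFBP1 and IGFBP2 are restrained by insulin and hold IGF-I away from its receptor, and BCL6 is a repressor that occupies many of the same sites as STAT5.

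To show where these regulators could bind, 15 RefSeq promoter windows (build GRCm38.p6) of 9 of the 10 members were searched on both strands. Each window holds 250 bases before and 50 bases after an annotated transcription start. Socs2 has no window in the table used. The STAT5 motif TTCNNNGAA, which reads the same on both strands, stands in 8.30% of 32851 windows of all genes. It was found in 5 windows of 3 members (Cish, Igfals and Bcl6). The forkhead motif CAAAACA, of the kind bound by the insulin-restrained FOXO factors, stands in 6.28% of all windows and was found in the window of Igfbp1 only among the members. A further forkhead motif, GTAAACA, stands in 3.65% of all windows and was found, as TGTTTAC, in 1 window of Igfals. None of the 3 motifs overlapped another in these windows. The windows of Igf1, Ghr, Igfbp2, Igfbp4 and Stat5b held none of these letters. The only Igf1 window (chr10:87860861-87861160) lies inside the gene, which begins at 87858265 in the count table, so the sequence before that start was not searched. The only Cish window (chr9:107296409-107296708) likewise lies inside its gene, which begins at 107296026. On the minus strand, Bcl6 begins at 23988852. Its window chr16:23981234-23981533 lies inside the gene, and its window chr16:23988803-23989102 reaches that start. A match is a description of the sequence and not a shown site of binding.

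The 4 windows below are those with the most matches for each of the 4 members concerned, written 5′ to 3′ on the strand of the gene, with the matched letters in capitals. Positions count from 1 at the start of transcription. In Cish (chr9:107296409-107296708, plus strand), the first bases of STAT5 motifs are at 1 and 12. In Igfals (chr17:24877981-24878280, plus strand), the forkhead motif begins at -242 and the STAT5 motif at -58. In Igfbp1 (chr11:7197537-7197836, plus strand), the forkhead motif begins at -108. In Bcl6 (chr16:23981234-23981533, minus strand), STAT5 motifs begin at -168, -122 and -88.
Cish: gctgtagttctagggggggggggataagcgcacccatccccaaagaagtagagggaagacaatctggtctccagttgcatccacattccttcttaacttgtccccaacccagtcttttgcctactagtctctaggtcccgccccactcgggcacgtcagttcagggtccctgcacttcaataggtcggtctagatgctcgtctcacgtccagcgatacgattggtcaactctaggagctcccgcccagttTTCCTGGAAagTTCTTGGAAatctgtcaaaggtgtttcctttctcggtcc
Igfals: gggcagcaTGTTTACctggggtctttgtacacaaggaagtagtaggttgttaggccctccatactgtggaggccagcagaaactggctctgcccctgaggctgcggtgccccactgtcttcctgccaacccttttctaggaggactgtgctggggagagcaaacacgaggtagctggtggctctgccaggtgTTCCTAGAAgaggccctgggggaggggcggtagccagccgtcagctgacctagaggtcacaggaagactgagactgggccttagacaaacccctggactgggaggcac
Igfbp1: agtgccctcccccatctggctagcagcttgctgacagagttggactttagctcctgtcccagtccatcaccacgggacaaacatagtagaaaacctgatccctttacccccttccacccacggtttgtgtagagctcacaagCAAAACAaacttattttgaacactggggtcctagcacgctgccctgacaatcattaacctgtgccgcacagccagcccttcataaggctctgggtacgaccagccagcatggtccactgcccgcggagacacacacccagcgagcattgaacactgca
Bcl6: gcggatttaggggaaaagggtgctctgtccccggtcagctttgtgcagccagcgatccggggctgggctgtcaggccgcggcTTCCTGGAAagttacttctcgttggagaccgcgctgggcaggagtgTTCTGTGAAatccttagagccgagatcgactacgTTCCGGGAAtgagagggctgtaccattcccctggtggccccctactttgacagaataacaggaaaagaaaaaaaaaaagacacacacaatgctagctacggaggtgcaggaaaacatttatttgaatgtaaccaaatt

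The deposited values are expected counts, estimated by the counting program for each gene. They were scaled by library total and by the TMM factors of edgeR, which gives CPM, counts scaled to a library of 1 common size. Totals were between 21999647 and 45273069 per liver. Nts itself had 0 counts in all 6 libraries labelled Nts+/+, which allows up to 0.0833 to 0.136 CPM. It had 46, 40 and 15 counts in the fed and 12, 4 and 18 in the fasted libraries labelled Nts-/-. The targeted gene was therefore counted only in the libraries labelled as lacking it, and every genotype direction below is that of the labels. The defining hepatocyte markers were abundant, with 6 genes that summed to between 108810 and 139703 CPM in every liver. Of 10 textbook genes of the fasting response, 5 rose and 4 fell (adjusted p under 0.05, mean of genotypes), where 32.8% of all tested genes were called. Fewer cells of a type and less RNA per cell cannot be told apart in these whole-liver samples.

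Per kilobase of its longest transcript, Igfbp4 had the highest mean level of the 10 members in fed Nts+/+ livers, at 304 ± 46.2 CPM per kilobase (SD, n = 3), followed by Igfbp2 at 219 ± 20.1. Ghr (85.0 ± 3.63), Igfbp1 (83.8 ± 54.7), Igf1 (74.6 ± 12.4) and Igfals (65.5 ± 12.6) followed, and their differences lay within the SD of at least one of each neighbouring pair. Stat5b (12.2 ± 1.84), Socs2 (9.37 ± 5.13) and Bcl6 (5.99 ± 6.09) were lower, and Cish, at 2.08 ± 0.96 CPM per kilobase, was the lowest. The neighbours Stat5b and Socs2, Socs2 and Bcl6, and Bcl6 and Cish lay within 1 SD of each other. The order depends on which transcript sets the length. With the median transcript length, Igfbp4 was at 1460 and Socs2 at 27.3 CPM per kilobase, and Igfals, at 105, passed Igf1 and Igfbp1.

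**Figure D1:**
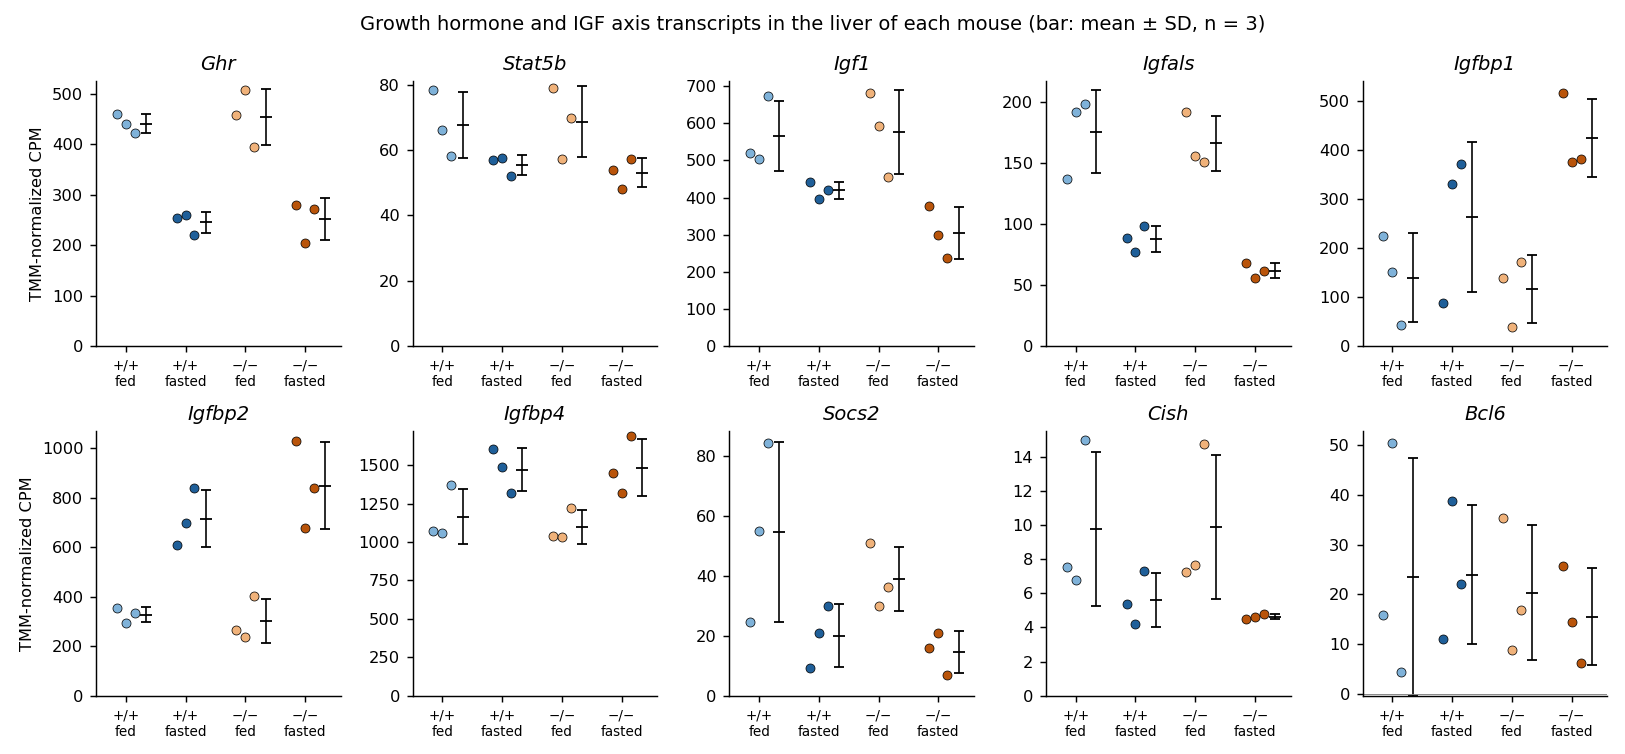
Level of each member in the liver of each mouse, as TMM-normalized CPM on an axis from 0, in fed and fasted Nts+/+ and Nts-/- mice. Circles are mice and bars are the mean ± SD of 3 mice, and the fasted mice of both genotypes lie below the fed mice in Ghr, Igf1 and Igfals and above them in Igfbp2.

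Averaged over the genotypes, fasting lowered the receptor, its transducer Stat5b, the hormone, the acid-labile subunit and both feedback inhibitors, and raised Igfbp2 and Igfbp4. In this comparison of 6 mice against 6, 8 of 10 members passed the threshold (adjusted p under 0.05), of which 2 were higher and 6 lower in fasted livers. Across all tested genes 32.8% passed in it. Within Nts+/+ mice 3 members passed (Igfals and Ghr lower, Igfbp2 higher), against 18.1% of all genes. Within Nts-/- mice 5 passed (Igf1, Igfals, Ghr and Cish lower, Igfbp2 higher), against 16.8% of all genes. The median log2 fold change of the 10 members was -0.50, beside -0.0071 over all tested genes. The levels of the 6 fed and the 6 fasted mice did not overlap for 4 members (Ghr, Igf1, Igfals and Igfbp2), which was so for 15.9% of all genes. Since earlier results were known at the choice of members, these counts describe them and are not an independent test of the axis. All tests are edgeR quasi-likelihood tests with Benjamini-Hochberg adjustment over the 13812 genes.

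**Figure D2:**
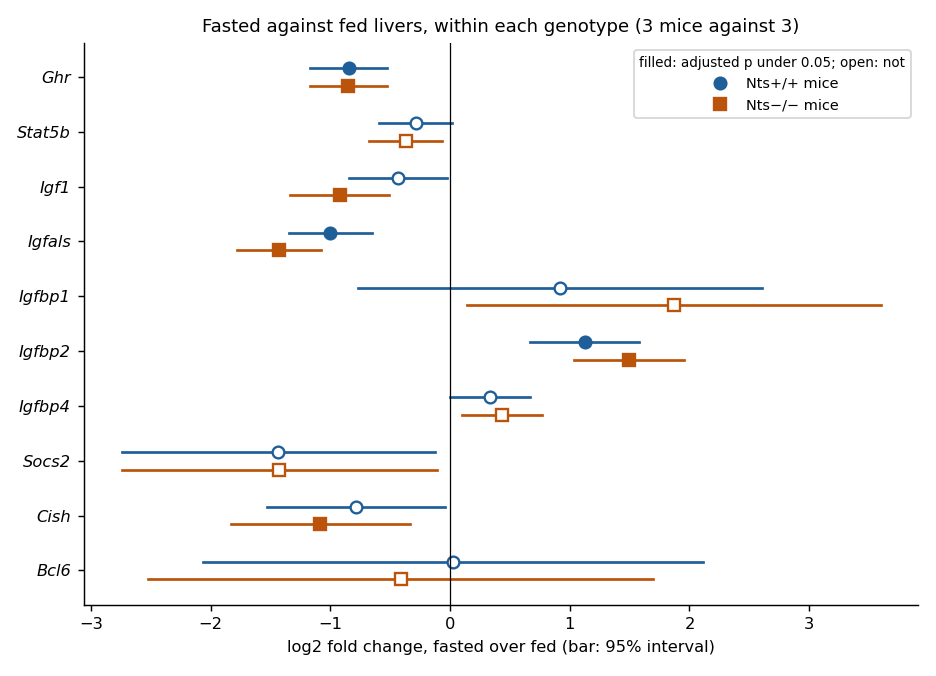
Log2 fold change of fasted over fed livers for each member, within Nts+/+ (circles) and within Nts-/- mice (squares), with 95% intervals as bars and filled symbols at an adjusted p under 0.05. Ghr and Igfals lie below 0 and Igfbp2 above 0 in both genotypes, and the intervals of Igfbp1, Socs2 and Bcl6 are the widest.

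Ghr (ENSMUSG00000055737, chr15:3317760-3583492; gene positions here and below are those of the count table, on GRCm38) encodes the growth hormone receptor. It was at 460, 439 and 422 CPM in fed and 254, 260 and 220 in fasted Nts+/+ livers. In Nts-/- livers it was at 458, 507 and 395 when fed and 279, 204 and 272 when fasted. Every fasted liver was below every fed liver. The log2 fold change with fasting was -0.85 ± 0.15 (SE) in each genotype (adjusted p = 0.00202 in Nts+/+ and 0.00188 in Nts-/-), a fall to 0.56 of the fed level in Nts+/+ livers. The fasting response differed between genotypes by -0.0017 (95% interval -0.45 to 0.45).

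Stat5b (ENSMUSG00000020919, chr11:100780731-100850724) encodes the transcription factor that carries the signal to the nucleus. It was at 78.5, 66.0 and 58.3 CPM in fed and 56.8, 57.4 and 51.9 in fasted Nts+/+ livers, and at 79.0, 57.3 and 69.7 in fed and 53.8, 48.2 and 57.3 in fasted Nts-/- livers. The fed and fasted ranges overlapped slightly, as 1 fed Nts-/- liver (mouse 303) lay among the fasted ones. Averaged over genotypes Stat5b fell by 0.33 ± 0.10 on the log2 scale (adjusted p = 0.0218). The call was lost without mouse 254 (adjusted p = 0.0694), 277 (0.0662) or 290 (0.06). Stat5b has a near copy, Stat5a, and its counts were fractional in all 12 libraries, so reads were shared out between genes by the counting.

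Igf1 (ENSMUSG00000020053, chr10:87858265-87937042) encodes the circulating hormone. It was at 520, 504 and 675 CPM in fed and 443, 396 and 420 in fasted Nts+/+ livers. In Nts-/- livers it was at 683, 592 and 456 when fed and at 376, 300 and 236 when fasted. The fed levels of the genotypes overlapped, and the 3 fasted Nts-/- livers were the 3 lowest of the 12, an order that was not tested. The log2 fold change with fasting was -0.43 ± 0.19 in Nts+/+ livers (adjusted p = 0.133) and -0.92 ± 0.19 in Nts-/- livers (adjusted p = 0.00568). The change passed the threshold in one genotype and not in the other, but the difference between the changes, -0.49 ± 0.27 (95% interval -1.07 to 0.086), did not pass (adjusted p = 0.897). Averaged over genotypes Igf1 fell by 0.68 ± 0.14 (adjusted p = 0.00185).

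Igfals (ENSMUSG00000046070, chr17:24878770-24882008) had the smallest p of the members in the comparison of fed and fasted mice. It was at 137, 191 and 198 CPM in fed and 88.3, 77.0 and 97.9 in fasted Nts+/+ livers, and at 191, 155 and 150 in fed and 67.8, 55.8 and 61.1 in fasted Nts-/- livers. No fasted liver reached the fed range. With fasting the log2 fold change was -1.0 ± 0.16 in Nts+/+ (adjusted p = 0.00123) and -1.43 ± 0.16 in Nts-/- livers (adjusted p = 0.000104), or 0.50 and 0.37 of the fed level. The promoter windows of Igfals, printed above for one start, hold a STAT5 motif at 2 of its 3 annotated starts. The window without one (chr17:24878497-24878796) is the only one that reaches the gene start of the count table.

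Igfbp2 (ENSMUSG00000039323, chr1:72824503-72852474) and Igfbp4 went the other way. Igfbp2 was at 355, 295 and 334 CPM in fed and 608, 699 and 838 in fasted Nts+/+ livers, and at 264, 236 and 403 in fed and 1029, 676 and 839 in fasted Nts-/- livers. Every fasted liver was above every fed liver. Igfbp2 rose 2.18-fold in Nts+/+ (log2 1.12 ± 0.21, adjusted p = 0.00317) and 2.82-fold in Nts-/- livers (log2 1.49 ± 0.21, adjusted p = 0.00046).

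Igfbp1 (ENSMUSG00000020429, chr11:7197782-7202546), the binding protein most quickly restrained by insulin, had the highest fasting fold change of the members, 2.63-fold averaged over genotypes, but did not pass the threshold. It was at 224, 151 and 43.4 CPM in fed and 87.8, 331 and 373 in fasted Nts+/+ livers, and at 140, 38.4 and 171 in fed and 518, 376 and 382 in fasted Nts-/- livers. The fasted mouse 265 was below 4 of the 6 fed mice, and the other 5 fasted mice were above all of them. Averaged over genotypes the log2 fold change was 1.39 ± 0.53 (95% interval 0.19 to 2.60, adjusted p = 0.0754). It passed with the Wald test of DESeq2 (adjusted p = 0.0243) and without mouse 265 (log2 1.61, adjusted p = 0.0385). Levels among fed mice spanned 5.85-fold and among fasted mice 5.90-fold.

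Igfbp4 (ENSMUSG00000017493, chr11:99041244-99054392) is a binding protein made in many tissues. It was at 1069, 1059 and 1371 CPM in fed and 1602, 1490 and 1322 in fasted Nts+/+ livers, and at 1036, 1033 and 1224 in fed and 1447, 1319 and 1689 in fasted Nts-/- livers. A single fed liver (mouse 323) lay within the fasted range. The rise averaged over genotypes was 1.31-fold (log2 0.39 ± 0.11, adjusted p = 0.0155). Within Nts-/- livers it missed the threshold (log2 0.44 ± 0.16, adjusted p = 0.0703) and passed with DESeq2 (0.0211) and without mouse 319 (0.0486).

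Igfbp1 and Igfbp2 together were set against Igf1 in CPM per kilobase, as a description with no test. The ratio was 5.43, 4.33 and 2.80 in fed and 7.87, 12.7 and 14.1 in fasted Nts+/+ livers. In Nts-/- livers it was 2.89, 2.31 and 6.18 when fed and 20.1, 17.1 and 25.4 when fasted. All 6 fasted livers had a higher ratio than all 6 fed livers, and the 3 fasted Nts-/- livers had the 3 highest values. The ratio restates the member levels given above, in which Igf1 and Igfbp2 already separated fed from fasted livers, and is not a further result. The lengths set the size of the ratio and the weights of the summed binding proteins, and other transcript lengths would give other values.

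**Figure D3:**
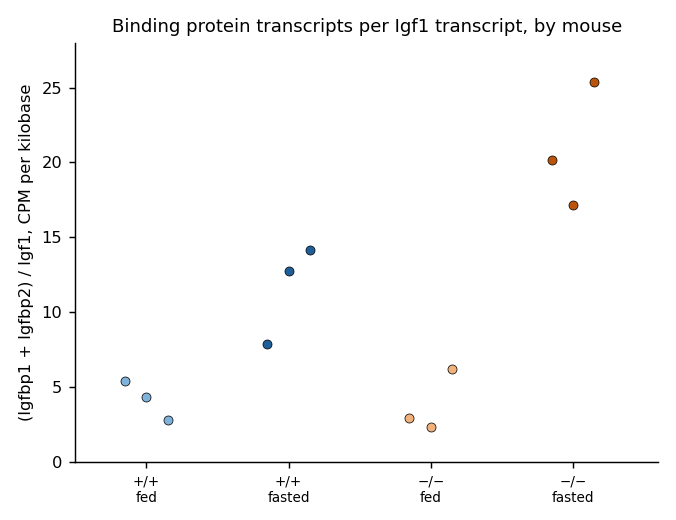
Sum of Igfbp1 and Igfbp2 over Igf1, each in CPM per kilobase of the longest transcript, for each mouse (circles) in the 4 groups, on an axis from 0. Fed livers lie between 2.31 and 6.18, fasted Nts+/+ livers between 7.87 and 14.1 and fasted Nts-/- livers between 17.1 and 25.4.

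The feedback inhibitors Socs2 (ENSMUSG00000020027, chr10:95385362-95417180) and Cish (ENSMUSG00000032578, chr9:107296026-107302784), which STAT5 induces and which dampen signalling at the receptor, were both lower after fasting. Socs2 was at 24.5, 55.1 and 84.5 CPM in fed and 9.16, 21.0 and 30.2 in fasted Nts+/+ livers, and at 50.9, 30.2 and 36.2 in fed and 16.03, 21.0 and 7.02 in fasted Nts-/- livers. The ranges overlap because the fed mice 254 and 303 were below the fasted mouse 322. Both genotypes had nearly the same log2 fold change, -1.44 ± 0.58 in Nts+/+ and -1.43 ± 0.58 in Nts-/-. It did not pass in either (adjusted p = 0.121 and 0.129) and passed averaged over them (-1.43 ± 0.41, adjusted p = 0.0255). That call was lost with no filter on low counts (adjusted p = 0.0553) and without mouse 323 (0.0506), 282 (0.0559), 277 (0.059) or 284 (0.0505).

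Cish was at 7.57, 6.77 and 14.98 CPM in fed and 5.36, 4.20 and 7.32 in fasted Nts+/+ livers. In Nts-/- livers it was at 7.25, 7.67 and 14.7 when fed and at 4.49, 4.63 and 4.80 when fasted. In each genotype 1 fed mouse (323 and 319) stood above the other 2, and the 3 fasted Nts-/- livers were closely alike (SD 0.15). Averaged over genotypes the log2 fold change was -0.94 ± 0.24 (adjusted p = 0.0108). The call within Nts-/- livers (-1.08 ± 0.34, adjusted p = 0.0493) lay at the threshold. It was lost with RLE normalization (0.0523), with no count filter (0.106), and when any of mice 254, 265, 282, 277, 303, 319, 284, 290 or 295 was left out (0.0517 to 0.15). Counts were fractional in 7 libraries for Cish and in 3 for Socs2, so some reads were shared out between genes.

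Bcl6 (ENSMUSG00000022508, chr16:23965052-23988852) showed no fasting difference larger than its spread. It was at 15.8, 50.4 and 4.39 CPM in fed and 10.9, 38.8 and 22.1 in fasted Nts+/+ livers, and at 35.3, 8.83 and 16.8 in fed and 25.7, 14.5 and 6.21 in fasted Nts-/- livers. The fed mice alone spanned 11.5-fold and the groups overlapped throughout. The log2 fold change averaged over genotypes was -0.19 ± 0.65 (95% interval -1.68 to 1.29, adjusted p = 0.85), so that a change in either direction by 2-fold would lie within the interval.

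**Figure D4:**
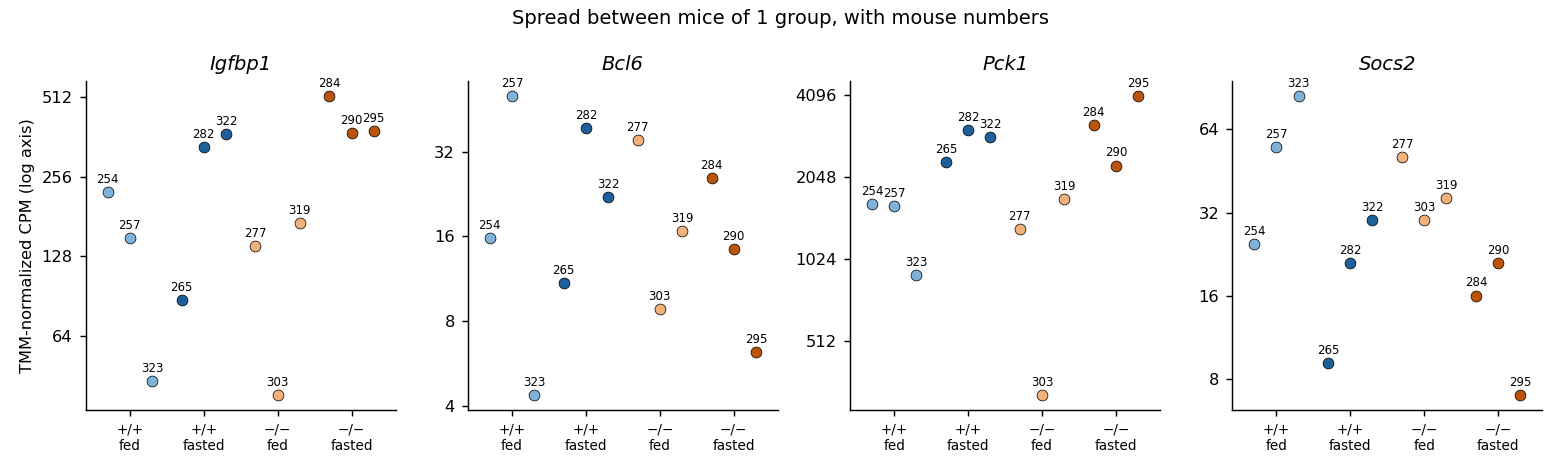
Igfbp1, Bcl6, Pck1 and Socs2 in each mouse, as TMM-normalized CPM on log axes, with the mouse number above each circle. Mice 323 and 303 are the lowest fed mice and mouse 265 the lowest fasted Nts+/+ mouse in Igfbp1 and in Bcl6.

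No member differed between the genotypes past the threshold. In fed livers 0 of 10 passed at an adjusted p of 0.05 (0% of all 13812 genes), and 0 had an unadjusted p under 0.05 (6.34% of all genes). In fasted livers 0 of 10 passed (0% of all genes) and 2 had an unadjusted p under 0.05 (4.96% of all genes). Averaged over feeding states 0 passed (0%) and 1, Igfals, had an unadjusted p under 0.05 (6.22%). With DESeq2 as the test, there were calls for 12, 4 and 16 genes of all those tested in these 3 comparisons, and for 0 members. In fed livers the log2 differences (Nts-/- minus Nts+/+) of the members lay between -0.48 for Socs2 and 0.042 for Ghr, with 95% intervals of -1.76 to 0.79 and of -0.27 to 0.36.

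The 2 members in fasted livers were Igf1 and Igfals. All 3 fasted Nts-/- livers were below all 3 fasted Nts+/+ livers in both genes, 236 to 376 against 396 to 443 CPM for Igf1 and 55.8 to 67.8 against 77.0 to 97.9 CPM for Igfals. The share of all genes with such a full separation was not counted. With 3 mice against 3, order alone cannot give a two-sided p under 0.1. The log2 difference was -0.46 ± 0.19 for Igf1 (95% interval -0.87 to -0.055, unadjusted p = 0.0291) and -0.51 ± 0.16 for Igfals (-0.86 to -0.16, unadjusted p = 0.00691). Neither passed after adjustment (adjusted p = 0.917 for both). Over all alternatives the adjusted p was never below 0.764 for Igf1 and 0.717 for Igfals. Ghr did not show this order, with fasted Nts-/- livers at 204 to 279 and fasted Nts+/+ livers at 220 to 260 CPM. Igfbp1 had the highest log2 difference in fasted livers, 0.69 ± 0.74, and Bcl6 the lowest, -0.65 ± 0.93, both within their intervals of 0.

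**Figure D5:**
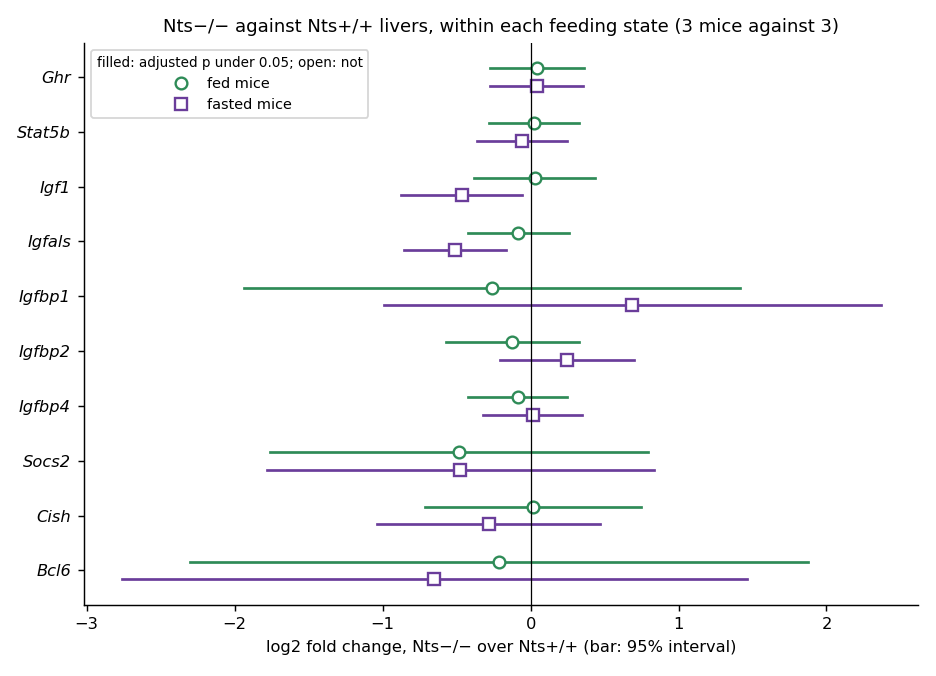
Log2 difference of Nts-/- over Nts+/+ livers for each member in fed (circles) and fasted mice (squares), with 95% intervals as bars. All symbols are open, since no adjusted p was under 0.05, and the intervals of Igf1 and Igfals in fasted mice lie below 0.

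The fasting response itself was compared between genotypes as an interaction. None of the 10 members passed at an adjusted p of 0.05 (0% of all genes, 3 genes and no member with DESeq2), and 0 had an unadjusted p under 0.05 (4.8% of all genes). The differences between the fasting responses ran from -0.49 ± 0.27 for Igf1 to 0.95 ± 1.04 for Igfbp1. For Igfals it was -0.43 ± 0.23 (95% interval -0.92 to 0.058, adjusted p = 0.897). All these comparisons draw on the same 12 mice, so that their values for a member are not independent of each other.

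The wider pathway was counted by lists written from known roles, also with earlier results of these data known. Of 12 other receptor and signal genes, 4 fell with fasting averaged over genotypes and 0 rose (median log2 fold change 0.025, beside -0.0071 over all tested genes). The share called is near the 32.8% of all genes called in this comparison. Jak2, Stat5a and Prlr were among those that fell. Prlr, the prolactin receptor, which also signals through STAT5, was between 378 and 393 CPM in fed and between 203 and 265 in fasted Nts+/+ livers. In Nts-/- livers it was between 308 and 608 when fed and between 164 and 200 when fasted. Its log2 fold change was -1.02 ± 0.14 (adjusted p = 0.000138). Stat5a fell by 0.53 ± 0.12 (adjusted p = 0.00343), under the same limit on reads shared with Stat5b. Of 11 other brakes on the pathway, Ptpn11 and Grb14 rose, Grb10 fell and 8 did not pass (median 0.090).

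Of 10 other IGF ligand and binding genes, 4 had enough counts to be tested. Igf2, which the adult mouse liver hardly makes, had at most 12 counts in any library, and Pappa2 had 0 in all 12. Of the 4 tested, Igfbp5 and Htra1 fell with fasting averaged over genotypes, where 32.8% of all genes were called. Within Nts-/- livers all 4 (Igfbp3, Igfbp5, Igfbp7 and Htra1) were called lower, against 16.8% of all genes called in either direction. Within Nts+/+ livers only Htra1 was called, against 18.1% of all genes. In the interaction 0 of the 4 passed. Htra1, a protease that cuts binding proteins, was between 0.98 and 2.70 CPM in fed and between 0.36 and 0.81 in fasted livers (log2 -1.57 ± 0.27, adjusted p = 0.000727). Markers of stellate and endothelial cells were lower in sum in most fasted livers. All 6 hepatic stellate cell markers summed to between 196 and 273 CPM in fed and between 185 and 209 in fasted livers, with 4 of 6 called lower. All 5 sinusoidal endothelial markers summed to between 123 and 179 CPM in fed and between 103 and 124 in fasted livers, with 2 of 5 called lower and 1 higher. The other cell types did not move alike. The 5 Kupffer cell markers summed to between 388 and 445 CPM in fed and between 195 and 334 in fasted Nts+/+ livers, but to between 244 and 343 in fed and between 254 and 300 in fasted Nts-/- livers, with 1 of 5 called lower averaged over genotypes. Lymphocyte markers summed to between 12.9 and 15.8 CPM in fed and between 8.73 and 21.2 in fasted livers, and cholangiocyte markers to between 3.72 and 6.17 in fed and between 2.84 and 6.31 in fasted livers, with 0 called in either list. No marker of these lists was at 0 in all mice. Their part in the fall of Igfbp3, Igfbp5, Igfbp7 and Htra1 was not tested.

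Genes whose sex-dependent expression in liver is known to follow growth hormone were counted in these female livers. Of 13 tested genes that male livers express more, 6 fell with fasting and 0 rose (median log2 fold change -0.64), and of 14 that female livers express more, 1 fell and 1 rose (median 0.39), where 32.8% of all tested genes were called in either direction. Selenbp2 was between 12.9 and 80.8 CPM in fed and between 1.06 and 2.55 in fasted livers (log2 -4.52 ± 0.52, adjusted p = 0.00024). Nudt7, a peroxisomal hydrolase, was between 138 and 225 CPM in fed and between 57.4 and 84.1 in fasted livers (-1.43 ± 0.13, adjusted p = 4.95e-06). Hsd3b5 was near the counting floor, between 0.11 and 3.06 CPM in fed and between 0 and 0.0992 in fasted livers. Selenbp2 and Hsd3b5 each belong to families of near-identical genes. The counts of Selenbp2 were fractional, so reads were shared out between genes and its counts are uncertain. The counts of Hsd3b5 were whole numbers in every library. A1bg, the gene of the female list that fell, went from between 112 and 611 CPM in fed to between 5.60 and 34.4 in fasted livers (-3.95 ± 0.56, adjusted p = 0.000847).

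Averaged over genotypes, 32.8% of all tested genes were called with fasting, with a median log2 fold change of -0.0071. Of 6 transcription factors known to follow growth hormone in liver, Tox alone passed in it (median of the 6 -0.064). Tox was between 5.72 and 11.4 CPM in fed and between 14.8 and 22.2 in fasted livers (log2 1.08 ± 0.15, adjusted p = 0.000115). Of 9 regulators through which fasting is known to act on the axis, Fgf21, Ppara and Creb3l3 rose, Foxo4 and Nr3c1 fell and 4 did not pass. The median log2 fold change of these 9 was 0.023. Fgf21 encodes a fasting hormone that is known to blunt growth hormone signalling. It was between 0.87 and 4.21 CPM in fed and between 18.2 and 25.4 in fasted livers, with no overlap, a 7.80-fold rise (log2 2.96 ± 0.30, adjusted p = 4.23e-05). None of the genes in these lists passed in a genotype comparison or in the interaction, where 0% of all tested genes passed.

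The tested genes whose profile over the 12 mice was nearest to a member were found by the root mean square difference of centred log2 CPM. The 3 nearest to Igfals were Camkk2 (0.18), Ctsc (0.18) and Slc22a26 (0.21), against a root mean square of 0.65 for the profile of Igfals itself. Camkk2 was also the second nearest to Socs2 (0.51), after Rab3b (0.42). The 3 nearest to Igfbp2 were Pla2g12a (0.20), Psmd9 (0.22) and Rbp4 (0.22), against 0.71 for its own profile. Igfbp1 had no close neighbour. The nearest 3 were Gm45053 (0.61), Pck1 (0.62) and Gm17300 (0.63), against 1.19 for its own profile. Pck1 encodes a key enzyme of gluconeogenesis that insulin restrains as it does Igfbp1.

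Within groups, the deviations of Igf1, Socs2, Cish and Bcl6 from their group means were compared in 6 pairs over the 12 mice. None passed an exact permutation test that moved mice within groups (1296 arrangements). The strongest relation was between Cish and Bcl6, with Pearson r = -0.56 (two-sided exact permutation p = 0.169, adjusted 0.572) and Spearman rho = -0.66 (p = 0.0617, adjusted 0.37), and r was -0.43 without mice 319 and 323. For Igf1 and Socs2, r was 0.46 (exact permutation p = 0.191, adjusted 0.572) and rho 0.47 (p = 0.191, adjusted 0.574), and r was 0.30 without mice 284 and 295.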

How the data were processed

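Livers of 12 female mice, 3 in each of 4 groups, were profiled by RNA-seq. The deposited table holds expected counts, in which a read that fits several genes is shared between them, with no scaling between libraries. The submitters' processing notes name Trimmomatic, RSEM and GRCm38, and the versions are not given in the sources used here. Expected counts were rounded. Columns of other samples numbered 0, and 1220 genes had no symbol.

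In R 4.3.3, edgeR 4.0.16 kept 13812 of 48795 genes (filterByExpr), normalized with TMM and fitted 1 robust quasi-likelihood model of all 12 mice with a mean per group and 7 contrasts. P values were Benjamini-Hochberg adjusted over all tested genes (threshold 0.05). The biological coefficient of variation was 0.202. Per-mouse log2 CPM used a prior count of 2. Total counts per mouse set a floor of 3 counts at 0.0663 to 0.136 CPM, which covers counting error only. All mice carry one batch label. Mice are separate animals, and no mouse number is shared between groups, so that no block was fitted. Transcript lengths came from GENCODE vM39, matched by Ensembl identifier, and promoter sequences from RefSeq (GRCm38.p6).

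All 10 members are named. Of the other lists, genes past the threshold in both fasting contrasts are given with values, apart from a result that is not reported here, and further names were added after their values were seen. The members and lists were chosen with earlier results of these data known. Alternatives were RLE and upper-quartile normalization, DESeq2 1.42.0, testing without a count filter, a minimum of 10 counts in each library, fits of only those mice that a contrast compares, an adjusted p under 0.1, a log2 change of 1 or more in size, median transcript length, a prior count of 0.5 and leaving out each mouse. The tests were checked on simulated data.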

Additional observations from a re-analysis of the deposited data

How the results depend on the processing

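The count of members changed with fasting was 3 in Nts+/+ livers, 5 in Nts-/- livers and 8 averaged over genotypes. It stayed within 1.5 times of these values under every alternative but one. With a log2 change of 1 or more in size required as well, it was 1, 3 and 3. Leaving out single mice gave 3 in Nts+/+ livers each time, 4 to 5 in Nts-/- livers and 6 to 9 averaged over genotypes, and 0 members in each genotype comparison and in the interaction. With a prior count of 0.5, none of the 6 correlations between members changed sign or passed. For Igf1 and Bcl6, r was 0.0096 over 12 mice and -0.39 without the 2 farthest, and for Igf1 and Cish r was -0.04 and rho 0.014, so that these relations have no settled sign. For the means over genotypes and the interaction, a fit of only the mice compared is the same fit and was not run again.

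Directions turned only in differences that had not passed the test. Bcl6 with fasting in Nts+/+ livers was -0.015 with upper-quartile normalization, and between -0.51 and 1.24 when single mice were left out. For Bcl6 with fasting the leave-out range was -0.99 to 0.26 in Nts-/- livers and -0.48 to 0.41 averaged over genotypes. For genotype in fed livers it was -0.049 to 0.13 for Ghr, -0.11 to 0.17 for Igf1 and -0.24 to 0.014 for Igfals, and for Igfbp1 averaged over feeding states -0.00074 to 0.48. The cause was not tested.

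For the genes of the pathway lists that passed within both genotypes, the calls averaged over genotypes held under all alternatives. Other genes outside the 10 members were not checked in this way. Within 1 genotype, calls were lost for Stat5a in Nts+/+ livers (only the mice compared, adjusted p = 0.0544, or without mouse 254, 257, 323, 265, 322, 277 or 284, up to 0.138) and in Nts-/- livers (only the mice compared, 0.0552, or without 254, 265, 277, 303, 284 or 290, up to 0.156). They were also lost for Prlr in Nts+/+ livers (without 254, 257, 265 or 322, up to 0.0617), for Htra1 in Nts+/+ livers (only the mice compared, 0.0537, or without 254, 257, 282 or 322, up to 0.145), for A1bg in Nts+/+ livers (only the mice compared, 0.053, or without 254 or 322, up to 0.0662) and for Hsd3b5 in Nts-/- livers (without 277, 284, 290 or 295, up to 0.234).

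No paired analysis was possible because the groups share no mouse numbers. With 3 mice a group, the simulated data at these depths gave 61 of 99 genes changed 2-fold back in the comparison of feeding states in Nts+/+ mice, and 77 of 99 changed 4-fold, among 13637 genes. A smaller difference can therefore be missed.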

Other observations

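Igfbp1 and Bcl6 were lowest in the same mice in 3 of the 4 groups, a pattern chosen after the values were seen and not tested. Mouse 323 was the lowest fed Nts+/+ mouse in both, at 43.4 CPM of Igfbp1 and 4.39 of Bcl6. Mouse 303 was the lowest fed Nts-/- mouse, at 38.4 and 8.83, and mouse 265 the lowest fasted Nts+/+ mouse, at 87.8 and 10.9. Among fasted Nts-/- mice the order differed, with Bcl6 lowest in mouse 295 (6.21) and Igfbp1 lowest in mouse 290 (376). Pck1 was also lowest in mice 323 (896 CPM), 303 (326) and 265 (2339) within their groups. Irs2, the insulin receptor substrate that rises when insulin is low, was at 16.5 CPM in mouse 323 against 43.5 and 44.8 in the other fed Nts+/+ mice, and at 27.98 in mouse 303 against 43.9 and 29.7. In mouse 265 it was at 49.4 against 55.4 and 60.9. Other genes that differ with fasting did not all share this order. Within their groups, G6pc was lowest in mice 323 (268 CPM) and 303 (243) but highest in mouse 265 (762). Fasn was lowest in mouse 323 (181 CPM) but highest in mouse 303 (688). A part of insulin in this pattern was not tested.

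Socs2 and Cish, both feedback inhibitors, were highest in the fed Nts+/+ mouse 323 (84.5 and 14.98 CPM), which also had the highest Igf1 of its group (675 CPM) and the highest Igfals (198 CPM). In fed Nts-/- mice the highest Cish was in mouse 319 (14.7 CPM), but the highest Socs2 and Igf1 were in mouse 277 (50.9 and 683 CPM). These values are single mice with no test.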
